A study of Mus musculus with 6 samples.

Results

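Krtap5-1, Krtap5-4 and Krtap12-1 encode cysteine-rich keratin-associated proteins of hair, and their transcripts were followed here in whole skin of mice that overexpress Hoxc13. They were chosen by name, as every probe set whose current gene symbol begins with Krtap5- or Krtap12-, which gave 3 genes of the 8251 named on the array, each with 1 probe set. GC13 is a transgenic line that overexpresses Hoxc13, a transcription factor with a homeodomain that acts in hair follicles, and FVB is the inbred strain it was set against. Total RNA of whole skin was taken 5 days after birth from both, with 3 GC13 samples and 3 FVB samples, each on 1 single-sample expression array. The sources used here do not give the promoter of the transgene, its copy number, the strain background of the line or the sex of the mice. Whether each sample was a mouse of its own is not stated in the labels, and p-values therefore measure only how far these samples spread, which may be technical.

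A hair shaft is built from keratin filaments embedded in a matrix of keratin-associated proteins, which are linked to the filaments and to each other by disulfide bonds between cysteines. The genes of these proteins are small, lie in clusters and are switched on late, in cells of the shaft that are close to hardening. Krtap5 proteins are of the ultra-high sulfur type and Krtap12 proteins of the high sulfur type, and in human hair both families are known from the cuticle, the scale layer that covers the shaft. Hoxc13 is expressed in the matrix, cortex and cuticle of the follicle, and hair keratin genes are among its known targets. Mouse skin at 5 days after birth is growing its first coat.

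The RefSeq gene table (assembly GRCm38.p6) lists 5 Krtap5 genes, which lie together on chromosome 7, and 1 gene named Krtap12, on chromosome 10. The array named 2 of the 5 Krtap5 genes. Members of the Krtap5 family have similar repeated sequences, and a probe set can take up signal from a close relative. Probe sequences were not used here, so the assignment of each signal to 1 member is uncertain. The promoter table of RefSeq (GRCm38.p6, 250 bases before to 50 bases after each annotated start) held 2 of the 3 genes. The 180 bases that end with the TATAAA motif of both Krtap5 genes are shown. These genes are neighbours on opposite strands, and their signals differed in the size of their change. That difference was not tested, nor was any part of these bases in it. The Krtap5-1 stretch is chr7:142297159-142297338 on the minus strand and the Krtap5-4 stretch is chr7:142303328-142303507 on the plus strand. Capitals mark TATAAA and, in Krtap5-1, a match to a published Hoxc13 binding element.
Krtap5-1: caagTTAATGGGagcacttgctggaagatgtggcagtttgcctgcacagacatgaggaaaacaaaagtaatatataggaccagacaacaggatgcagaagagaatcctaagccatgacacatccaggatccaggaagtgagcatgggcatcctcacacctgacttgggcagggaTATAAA
Krtap5-4: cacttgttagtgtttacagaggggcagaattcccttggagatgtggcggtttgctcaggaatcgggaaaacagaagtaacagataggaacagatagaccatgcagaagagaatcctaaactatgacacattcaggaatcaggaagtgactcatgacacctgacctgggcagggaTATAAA

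Both stretches aligned over 167 bases, of which 135 (80.8%) were identical. The TATAAA of Krtap5-1 began 30 bases before its annotated start, and that of Krtap5-4 began at base 1 of the annotated transcript, so the 2 annotated starts lie at different places relative to this motif. TATAAA, read on both strands, was in 13.6% of the 32851 windows of 300 bases in the table. The Hoxc13 element was searched on both strands as the 8 words TTAATNAA, TTAATNAG, TTAATNGA, TTAATNGG, TTTATNAA, TTTATNAG, TTTATNGA and TTTATNGG. It had 1 match in the Krtap5-1 window, at 200 bases before the start, and none in the Krtap5-4 window, against a match in 18.9% of all windows. A match is a description of the letters and not a site.

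One GC13 array stood apart in measures other than the 3 Krtap genes. Earlier results, with a large spread of these genes in GC13, were known when it was singled out. Gapdh control probe sets, whose 3' signal over 5' signal is a measure of RNA integrity, gave a ratio of 2.22, 9.58 and 2.19 on GC13 replicates 1, 2 and 3 and between 0.894 and 0.958 on the FVB arrays. The same ratio of beta-actin was 1.26, 3.80 and 1.43 on the GC13 arrays and 1.16 to 1.36 on the FVB arrays. GC13 replicate 2 lay at 33.9 on the first principal component (45.7% of the variance), against -27.6 and -45.4 for GC13 replicates 1 and 3 and between 3.35 and 17.8 for FVB. Eif2s3y, a gene on the Y chromosome, had 3.25, 143 and 4.60 on the GC13 arrays, against 69.4 to 98.9 on the FVB arrays. Among GC13 arrays Y-linked Uty was likewise highest on replicate 2, at 34.7, with 4.87 on replicate 1 and 7.19 on replicate 3. FVB arrays gave it 13.3 to 15.2. X-linked Xist, dim on every array, was lowest on GC13 replicate 2 at 1.07, with 9.15 on replicate 1 and 12.6 on replicate 3. For Xist the FVB arrays gave 9.95 to 11.9, beside their signal of Eif2s3y. The sex behind each sample was not tested. GC13 replicate 2 differed from GC13 replicates 1 and 3 in RNA integrity and in these sex-linked transcripts, and results are given with and without it. Skin was recognisable on every array, where the epidermal keratin Krt10 had between 1986 and 2324 and the dermal collagen Col1a1 between 2006 and 3405. Hoxc13 itself had no probe set in the annotation used, so the overexpressed gene, which would check the labels, was not analysed here. The summed intensity was 1640876 to 1736141 on the GC13 arrays and 1626361 to 1644444 on the FVB arrays, and the number of arrays limited the precision.

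The comparison asks what added Hoxc13 does to transcripts of the hair shaft. All 3 genes had lower mean intensities in GC13 skin, and none passed the test over all 6 arrays. Their log2 fold changes were all below 0, as were 42.6% of those of all probe sets. Krtap5-1 had its 3 GC13 values below its 3 FVB values. Krtap5-4 and Krtap12-1 had between 30.4% and 34.6% of the FVB mean on GC13 replicates 1 and 3 and were close to it on GC13 replicate 2. In a fit without GC13 replicate 2, Krtap5-4 fell 3.12-fold and Krtap12-1 fell 3.13-fold, and Krtap5-1 did not pass. That fit called 15.0% of all probe sets, 8.84% as lower in GC13, and its GC13 and FVB arrays also differ in Eif2s3y and in the Gapdh ratio. In whole skin, fewer shaft-forming cells and less RNA per cell cannot be told apart.

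**Figure D1:**
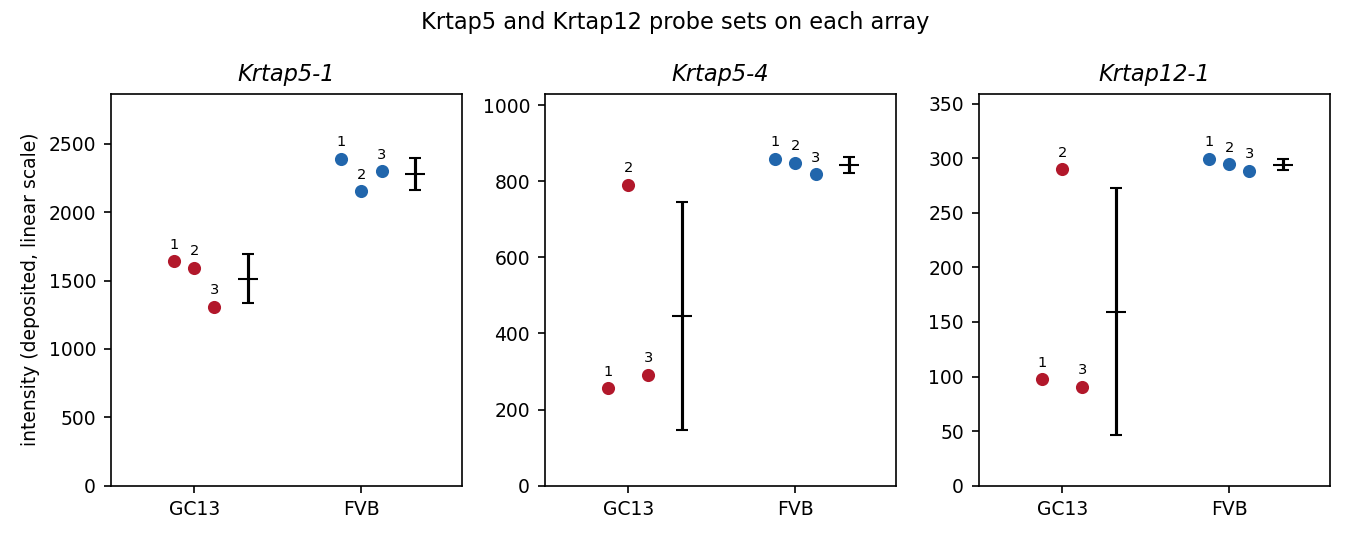
Deposited intensity (linear scale, from 0) of Krtap5-1, Krtap5-4 and Krtap12-1 on each array, GC13 in red on the left and FVB in blue on the right, with replicate numbers beside the points and the mean ± SD (n = 3) as a bar. GC13 replicate 2 lies near the FVB arrays for Krtap5-4 (790 against 819 to 859) and Krtap12-1 (290 against 289 to 299), but not for Krtap5-1 (1593 against 2153 to 2390).

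Krtap5-1 (Entrez 50774, chromosome 7), an ultra-high sulfur protein gene, gave the brightest of the 3 signals. Its intensity was 1643, 1593 and 1307 on GC13 replicates 1, 2 and 3, against 2390, 2153 and 2298 on FVB replicates 1, 2 and 3. The groups did not overlap, and GC13 replicate 3 was the lowest array. On average it had 1514 ± 181 (SD, n = 3) in GC13 and 2280 ± 119 (SD, n = 3) in FVB. The log2 fold change, GC13 minus FVB on the log2(intensity + 2) scale with each array centred on its median, was -0.52 (SE 0.23, limma adjusted p = 0.331), with a 95% confidence interval from -1.06 to 0.01. Of the 9316 probe sets tested, 9.91% also had all GC13 values below all FVB values and 14.6% had them above, so the separation of Krtap5-1 was of a common kind on these arrays. Its signal stood above that of 98.6% to 99.0% of probe sets on the GC13 arrays and 99.5% to 99.7% on the FVB arrays.

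Krtap5-4 (Entrez 50775, chromosome 7), its neighbour in the same cluster, split the GC13 group. Its intensity was 256, 790 and 292 on GC13 replicates 1, 2 and 3, against 859, 849 and 819 on FVB replicates 1, 2 and 3. GC13 replicates 1 and 3 had 30.4% and 34.6% of the FVB mean, and GC13 replicate 2 had 93.8%. On average it had 446 ± 299 (SD, n = 3) in GC13 and 842 ± 20.7 (SD, n = 3) in FVB, and on the centred log2 scale the groups overlapped, since GC13 replicate 2 was the highest of the 6 arrays. The log2 fold change was -1.03 (SE 0.47, limma adjusted p = 0.341), with a 95% confidence interval from -2.12 to 0.05.

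Krtap12-1 (Entrez 16694, chromosome 10), a high sulfur protein gene, split the GC13 arrays in the same way at a lower signal. Its intensity was 97.4, 290 and 90.8 on GC13 replicates 1, 2 and 3, against 299, 294 and 289 on FVB replicates 1, 2 and 3. GC13 replicates 1 and 3 had 33.1% and 30.9% of the FVB mean, and GC13 replicate 2 had 98.5%. Its place among all probe sets of an array, which no scaling by 1 factor can change, was above 70.5%, 88.2% and 68.2% of them on the GC13 arrays and above 88.8% to 89.0% on the FVB arrays. On average it had 159 ± 113 (SD, n = 3) in GC13 and 294 ± 5.33 (SD, n = 3) in FVB. The log2 fold change was -1.02 (SE 0.49, limma adjusted p = 0.366), with a 95% confidence interval from -2.14 to 0.11.

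Over all 6 arrays limma called 44 of 9316 probe sets (0.472%) at an adjusted p under 0.05, 36 of them lower in GC13 (0.386%) and 8 higher (0.0859%). None of the 3 genes was among them, and none had an unadjusted p under 0.05, with values of 0.0537 for Krtap5-1, 0.0585 for Krtap5-4 and 0.0704 for Krtap12-1. Without GC13 replicate 2 the log2 fold change was -1.64 (SE 0.14, limma adjusted p = 0.00448) for Krtap5-4 and -1.65 (SE 0.15, limma adjusted p = 0.0049) for Krtap12-1. They then stood at places 36 and 44 of the 9316 probe sets in order of p. For both genes the array left out was the 1 far from the other GC13 arrays. Its removal narrows their SE by construction, from 0.47 and 0.49 with all arrays, so these places are no independent support. Krtap5-1 had -0.66 (SE 0.19, limma adjusted p = 0.0596) in that fit. That fit of 2 GC13 against 3 FVB arrays called 8.84% of all probe sets as lower and 6.14% as higher in GC13, so a call there is far more common than over all arrays. It also sets 2 GC13 arrays with low Eif2s3y against 3 FVB arrays with high Eif2s3y, so the line and the level of that Y-linked transcript cannot be told apart in it. The Gapdh ratio was 2.22 and 2.19 on these GC13 arrays, above that of every FVB array, while their beta-actin ratios of 1.26 and 1.43 lay near the FVB range of 1.16 to 1.36. The part of RNA integrity in these differences was not tested.

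**Figure D2:**
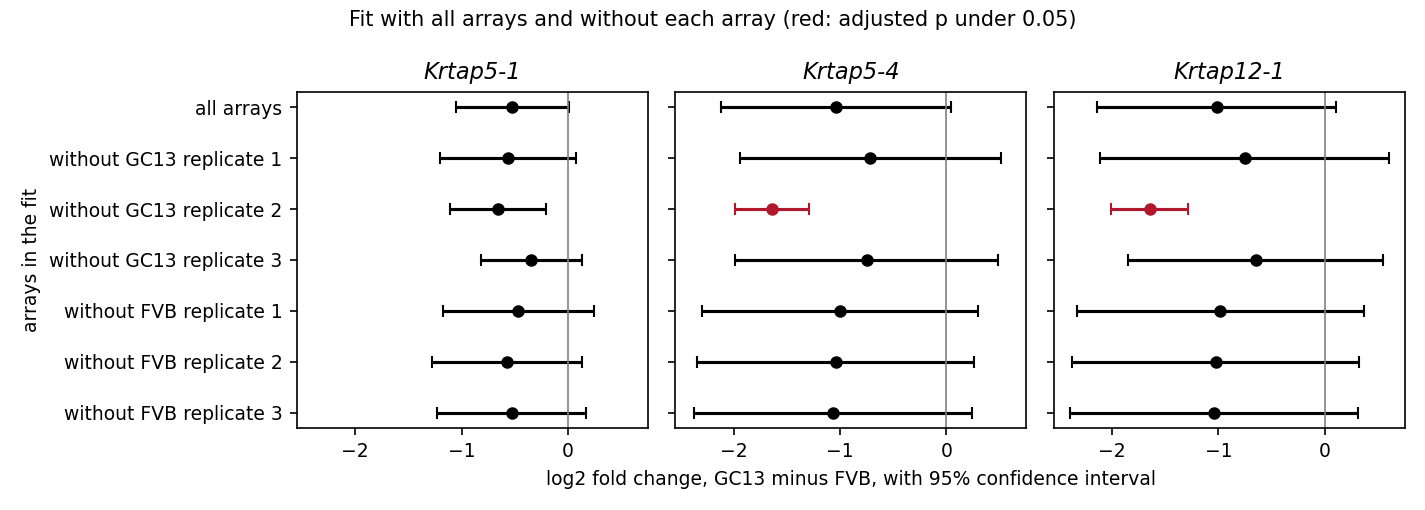
Log2 fold change (GC13 minus FVB, x axis) with its 95% confidence interval for the 3 genes, fitted with all arrays (top row) and without each array in turn, red where the limma adjusted p was under 0.05. Only the fit without GC13 replicate 2 passed, for Krtap5-4 at -1.64 and Krtap12-1 at -1.65, and every estimate lies below 0.

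The split within GC13 shows in the spread. On the log2 scale, the SD among the GC13 arrays was 1.05 for Krtap5-4 and 1.10 for Krtap12-1, against 0.07 and 0.06 among the FVB arrays. The GC13 group was more variable in general, with a median SD of 0.41 over all tested probe sets in GC13 and 0.15 in FVB. The ratio of both SDs was nevertheless larger than that of 97.1% of probe sets for Krtap5-4 and of 97.9% for Krtap12-1. For Krtap5-1, with an SD of 0.32 in GC13 and 0.11 in FVB, it was larger than that of 55.6%, near the middle of the array.

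**Figure D3:**
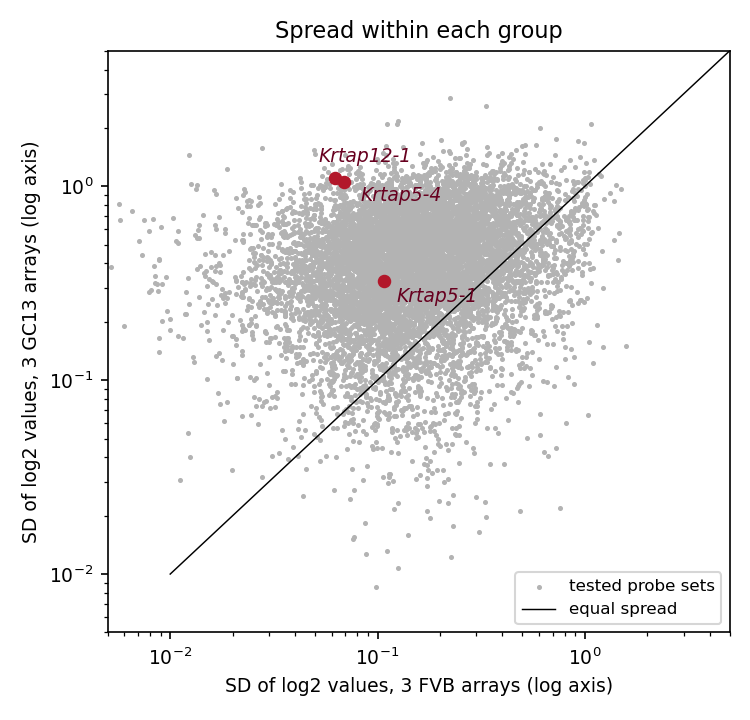
SD of the centred log2 values over the 3 GC13 arrays (y, log axis) against the SD over the 3 FVB arrays (x, log axis) for the 9316 tested probe sets (grey), with the 3 Krtap genes in red and a line of equal spread. Krtap5-4 and Krtap12-1 lie at the upper left, with SDs of 1.05 and 1.10 in GC13, while Krtap5-1, at 0.32, lies within the main cloud.

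Among themselves, Krtap5-4 and Krtap12-1 were the closest pair, although they lie on different chromosomes, and Krtap5-1 went apart from both. The log2 change from the FVB mean was -1.68, 0.18 and -1.60 for Krtap5-4 on GC13 replicates 1, 2 and 3, and -1.54, 0.24 and -1.75 for Krtap12-1. These changes differed by at most 0.15 on any GC13 array. Krtap5-1 had -0.44, -0.25 and -0.88 on the same arrays. Its change minus that of its neighbour Krtap5-4 was 1.24, -0.42 and 0.72 on GC13 replicates 1, 2 and 3, a difference in change that was not tested. Over the 6 arrays, Pearson's r of the centred log2 values was 0.99 between Krtap5-4 and Krtap12-1, 0.83 between Krtap5-1 and Krtap5-4, and 0.86 between Krtap5-1 and Krtap12-1. The points share the arrays and their scaling, and most of each r comes from the distance between GC13 replicates 1 and 3 and the other arrays. A pattern on the log2 scale was then counted, with limits set after the values were seen. In it GC13 replicates 1 and 3 were at least 1 below the FVB mean and GC13 replicate 2 was within 0.3 of it. It was found in 52 of 9316 probe sets (0.558%), Krtap5-4 and Krtap12-1 included. The shaft regulator Msx1 was also among them, as was the hair keratin Krt33b, by a probe set other than its brightest. The mirror pattern, with GC13 replicates 1 and 3 above, was found in 55 (0.590%), and GC13 replicate 2 alone was low in 99 (1.06%) and high in 50 (0.537%).

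The other keratin-associated proteins, which share the matrix of the shaft, gave the next comparison. None of the 8 other Krtap genes tested passed over all arrays, also at an unadjusted p under 0.05. Of them 6 lay below 0 and 2 above, with a median log2 fold change of -0.18, where 43.0% of all 6867 genes lay below 0 and their median was 0.07. Krtap6-3, of the high glycine-tyrosine type, had 183, 682 and 173 on GC13 replicates 1, 2 and 3, against 618, 646 and 510 on the FVB arrays. Krtap19-5, of the same type, had 617, 1354 and 493 in GC13 against 1325, 1257 and 1093 in FVB. Both had low values on GC13 replicates 1 and 3 and an FVB-like or higher value on replicate 2, as Krtap5-4 and Krtap12-1 did. Krtap14 had 1710, 2007 and 1487 in GC13 against 2358, 2197 and 2241 in FVB. Krtap3-1, a high sulfur gene, had 4388, 2791 and 3905 in GC13 against 3149, 2913 and 3200 in FVB. By intensity GC13 replicates 1 and 3 were above FVB and GC13 replicate 2 was below. On the centred log2 scale, where GC13 replicate 2 was 0.12 over the FVB mean, Krtap3-1 had all GC13 arrays above all FVB arrays. It was the only 1 of the 8 to do so, against 1027 of all 6867 genes. Its log2 fold change of 0.31 (limma adjusted p = 0.514) became -0.07 with quantile normalization, so its direction depended on the scaling. GC13 replicate 2 was the highest GC13 array for 6 of the 8 genes, against 48.4% of all genes. Without that array 2 of the 8, Krtap6-3 at -1.74 (limma adjusted p = 0.00594) and Krtap19-5 at -1.17 (limma adjusted p = 0.0191), fell and none rose, where 8.68% of all genes were called lower.

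**Figure D4:**
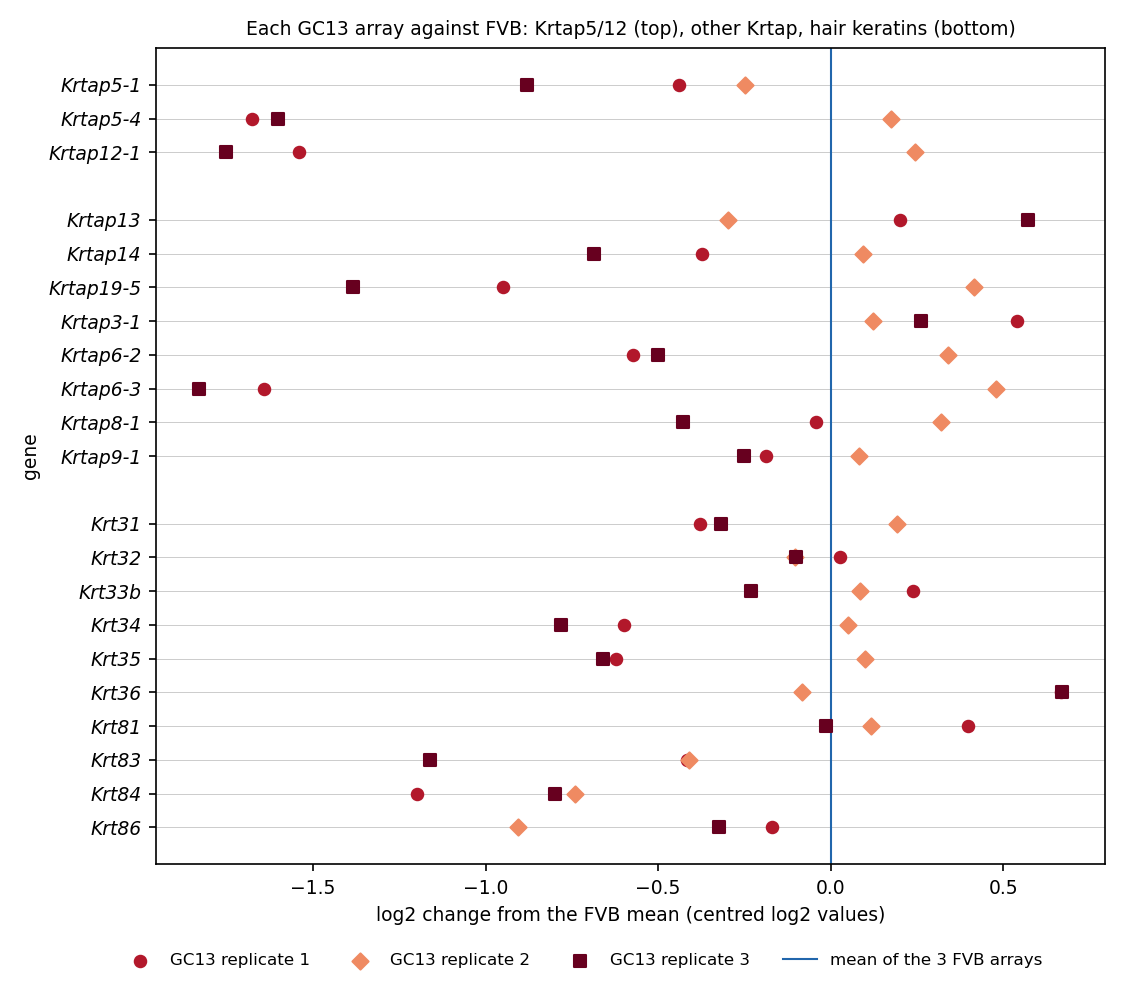
Log2 change of each GC13 array from the mean of the 3 FVB arrays (x axis, blue line at 0), with circles for GC13 replicate 1, diamonds for replicate 2 and squares for replicate 3, for the Krtap5 and Krtap12 genes (top), the 8 other Krtap genes (middle) and 10 hair keratins (bottom). Krtap5-4, Krtap12-1, Krtap6-3 and Krtap19-5 show replicates 1 and 3 far left of replicate 2, while Krt83, Krt84 and Krt86 lie left of 0 on all 3.

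The hair keratins, the filament proteins that keratin-associated proteins cross-link, did not follow 1 pattern. None of the 10 measured passed over all arrays and 2, Krt84 and Krt83, had an unadjusted p under 0.05 (1001 of all 6867 genes did), with 7 of 10 below 0 and a median of -0.28. Krt84 had 33.7, 39.7 and 48.9 on GC13 replicates 1, 2 and 3, against 77.1, 83.9 and 84.7 in FVB, or -0.91 on the log2 scale (SE 0.21, limma adjusted p = 0.126). A second probe set of Krt84 had a larger difference in the same direction, -3.18 (limma adjusted p = 0.0595). Krt83 had 1718, 1468 and 1107 in GC13 against 2340, 2247 and 2455 in FVB, and Krt86 had 1924, 980 and 1869 in GC13 against 2311, 2073 and 2262 in FVB. On the centred log2 scale these 3 keratins were lower than FVB on GC13 replicate 2 as well, where Krtap5-4 and Krtap12-1 were not. Krt34 had 1524, 2036 and 1451 in GC13 against 2445, 2363 and 2283 in FVB, with its highest GC13 value on replicate 2. On the centred log2 scale Krt34 correlated with Krtap12-1 at r = 0.99 and Krt35 did so at 0.99 over the 6 arrays, while Krt36, which had its lowest value on GC13 replicate 2, correlated at -0.99. Krt83 correlated with Krtap5-1 at 0.98. Without GC13 replicate 2, Krt84, Krt34 and Krt35 fell, the last 2 by 0.69 and 0.64 on the log2 scale, and Krt36 rose by 0.67 (limma adjusted p of 0.0198 to 0.0394 for the 4). In that fit 593 of all 6829 genes were called lower and 389 higher.

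Outside the 3 members themselves, the genes most like each of them over the 6 arrays are given here by Pearson's r. Krtap12-1, left out of the search as a member, had 0.994 with Krtap5-4, close to the fifth gene in its order. For Krtap5-1 they were Pfdn6 (r = 0.999), Map1lc3b (0.995), Map2k3 (0.988), Rnf149 (0.986) and Mcl1 (0.986). For Krtap5-4 they were Tpm1 (0.997), Rcan1 (0.997), Cntrob (0.997), S100a8 (0.996) and Uox (0.994). For Krtap12-1 they were Tpd52l1 (0.999), Ddhd1 (0.999), Tmem159 (0.998), Hbb-b2 (0.998) and Trak2 (0.997). Hbb-b2, an adult beta-globin gene with a near-identical copy, had 127, 610 and 109 on GC13 replicates 1, 2 and 3, against 629 to 682 on the FVB arrays, so it too was low on GC13 replicates 1 and 3 alone. Of the 6864 genes compared, 401 had an r over 0.9 with Krtap5-4 (5.84%), 460 with Krtap12-1 (6.70%) and 164 with Krtap5-1 (2.39%). Among the 8 other Krtap genes 4 were over 0.9 with Krtap5-4, the same number with Krtap12-1, and 1 with Krtap5-1. Among the 10 hair keratins 3 were over 0.9 with Krtap5-4, 3 with Krtap12-1 and 2 with Krtap5-1. With 6 arrays and so many genes, such an r describes the order of these arrays and no more.

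Genes beside the clusters on the chromosome were set beside the members. The nearest named genes with a tested probe set before the Krtap5 cluster were Ap2a2, Tollip and Dusp8, and after it Ifitm10, Ctsd and Syt8. The lysosomal protease gene Ctsd had 899, 270 and 764 on GC13 replicates 1, 2 and 3, against 1139, 1017 and 1177 in FVB, so that replicate 2 was its lowest array. Around Krtap12-1 they were Itgb2, Pttg1ip and Sumo3 on one side and Pfkl, Aire and Gatd3a on the other. None of these 12 genes passed over all arrays, and 2, Ctsd and Syt8, had an unadjusted p under 0.05, as 1001 of all 6867 genes did, a share near that of the neighbours. Without GC13 replicate 2, Pfkl rose by 0.76 (limma adjusted p = 0.0372) and the other 11 did not pass.

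Cysteine-rich proteins depend on cysteine supply and on enzymes that form disulfide bonds. Of all 6867 genes 21 were called lower and 6 higher, with a median log2 fold change of 0.07. Of the 23 tested genes of cysteine supply and disulfide handling 1 fell and none rose, with a median of -0.05. The 1 that fell was Qsox1, a sulfhydryl oxidase that makes disulfide bonds in proteins of the secretory route. It had 15.1, 6.88 and 19.5 on GC13 replicates 1, 2 and 3, against 91.1, 93.7 and 87.7 in FVB, or -2.57 on the log2 scale (SE 0.27, limma adjusted p = 0.0164). A second, dimmer tested probe set of Qsox1 had -1.24 (limma adjusted p = 0.0797) and lower values on all GC13 arrays. The call was lost without GC13 replicate 1 (limma adjusted p = 0.0576) and without any 1 FVB array (0.123 to 0.135), in fits that called 21 and 0 of 9316 probe sets. The isomerase genes Pdia4 and Pdia6 had -0.68 and -0.91, and Cdo1, which breaks down cysteine, had 0.73, none past the threshold. The other probe sets of Pdia6 disagreed, with 0.10 and -1.61. By these brightest probe sets Qsox1, Pdia4 and Pdia6 were lowest on GC13 replicate 2, the GC13 array where Krtap5-4 and Krtap12-1 were highest.

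Regulators of the shaft and cortex included 21 tested genes, of which none passed, 7 had an unadjusted p under 0.05, and 14 lay below 0 (median -0.34), while without GC13 replicate 2 7 fell and none rose. Of all 6867 genes 1001 had an unadjusted p under 0.05 and 2956 lay below 0, and 593 of 6829 were called lower without GC13 replicate 2. Foxn1, whose loss leaves mice without a normal coat, had 19.0, 1.31 and 4.35 on GC13 replicates 1, 2 and 3, against 41.3 to 53.5 in FVB. Dlx3, a homeobox gene of the matrix, had 355, 355 and 403 in GC13 against 663 to 726 in FVB, and Wnt5a had 12.1, 15.97 and 11.2 in GC13 against 31.3 to 35.3 in FVB. Foxq1, mutated in satin mice, had 54.7, 66.8 and 53.0 in GC13 against 109 to 131 in FVB. These 4, named for the smallest p of the list, were below FVB on all GC13 arrays, GC13 replicate 2 included. Of the 21 genes 8 were below in this way, against 656 of all 6867. Cux1 alone of the 21 was above FVB on all GC13 arrays, as 1027 of all genes were. Of 8 inner root sheath genes, which belong to the layer that moulds the shaft, 6 lay below 0 and 2 above. Krt71, 1 of those above, had a log2 fold change of 0.35 (limma adjusted p = 0.45). Of the 8 genes 1 fell, where 21 of all 6867 genes were called lower and 6 higher. It was Krt72, with 474, 360 and 424 in GC13 against 1089, 1103 and 1216 in FVB (log2 fold change -1.37, limma adjusted p = 0.0351). The call of Krt72 was lost without GC13 replicate 1 (limma adjusted p = 0.0848), without GC13 replicate 3 (0.0889) and without any 1 FVB array (0.257 to 0.328), in fits of fewer arrays that called 21, 14 and 0 probe sets. Its log2 fold change stayed between -1.44 and -1.30 in these 5 fits.

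Markers of other skin cells were also shifted between the lines, mostly without a call. No melanocyte, erythroid or adipocyte gene passed over all arrays, where of all 6867 genes 21 were called lower and 6 higher. The genes of basal keratinocytes, skeletal muscle, endothelium, leukocytes and mast cells, and Schwann cells and nerve had no call either. All 13 dermal fibroblast genes had values above 0 (median 0.65), 12 of them without overlap and 1 past the threshold, where of all 6867 genes 3911 lay above 0 and 1027 were above without overlap, and their summed intensity was 15673 to 20708 on the GC13 arrays and 12084 to 12694 on the FVB arrays. All 8 melanocyte genes lay below 0 (median -0.52), with sums of 720 to 923 in GC13 and 1192 to 1237 in FVB. The 10 suprabasal epidermis genes had sums of 7368 to 12114 in GC13 and 7566 to 7822 in FVB, with the lowest on GC13 replicate 2. Of them 4 lay below 0 and 6 above, Krt1 and Flg at 1.11 and 1.05 without a call. Krt77 was called lower (-1.31, limma adjusted p = 0.037), as 21 of all 6867 genes were. It had 451, 374 and 430 in GC13 against 1060, 1066 and 1152 in FVB, near the values of the inner root sheath gene Krt72 on each array. The 4 erythroid genes had sums of 1018 to 2312 in GC13 and 1794 to 1852 in FVB. The 7 adipocyte genes had 2218 to 2817 in GC13 and 1896 to 2040 in FVB. Both sums were highest on GC13 replicate 2, where Hba-a1 alone had 2219 of the erythroid sum. Gene by gene, on the centred log2 scale, GC13 replicate 2 was the highest GC13 array for 2 of the 4 and 5 of the 7, against 48.4% of all genes. Among the GC13 arrays alone, Krtap5-4 and Krtap12-1 were also highest on replicate 2. No tested marker was listed at 0. The part of these shifts in the Krtap values was not tested.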

How the data were processed

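The authors deposited 1 table of probe set intensities on a linear scale, 12488 probe sets on 6 arrays. The sources used here do not name the software, the background correction or detection calls. The values show that each array was scaled so that its mean, without the highest and lowest 2%, was 100.1. Apart from the 3' over 5' ratios, the 66 control probe sets were not used. The other 12422 were set to log2(intensity + 2), each array was centred on its median, because medians differed by up to 0.345, and the dimmest 25% by the mean of all arrays were dropped. That left 9316 probe sets, the 3 Krtap5 and Krtap12 probe sets among them. A fold change on this scale is understated for dim probe sets.

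The lines were compared in R 4.3.3 with limma 3.58.1 (lmFit, then eBayes). Tests were two-sided and adjusted by Benjamini-Hochberg over all 9316, with a threshold of 0.05. The fit was run on simulated data with independent normal errors and the same spread in both groups. These arrays had unequal spread, so that run cannot speak for the fit in this respect. Names came from the platform annotation, updated by Entrez identifier (10833 probe sets with 1 symbol, 396 with several, 1193 with none). Of the 3 members, 2 matched a RefSeq promoter. A gene with several probe sets stood by its brightest. Promoters were aligned and searched with Biopython 1.88 in Python 3.11.15.

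The members, lists and settings were chosen with earlier results of these data known. Named genes were the members, the 5 genes with the highest Pearson r to each, the 4 with the smallest p of each shaft list, and the 3 tested neighbours on each side. Krt35, Krt36, Krt71, Krt77, Krt1, Flg, Cux1, Hba-a1, Msx1, Krt33b, Hbb-b2's values and the array-order limits were picked after values were seen. No batch is given in the labels. Alternatives changed the pseudocount, filter, scaling, variance model, array weights, pairing and the arrays included.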

Additional observations from a re-analysis of the deposited data

How the results depend on the processing

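All 3 Krtap genes kept log2 fold changes below 0 under the 17 alternatives run. Array weights gave -0.48 for Krtap5-1, -1.65 for Krtap5-4 and -1.53 for Krtap12-1, all past the threshold, in a fit that called 3850 of 9316 probe sets. Leaving out 1 array at a time gave -0.66 to -0.34 for Krtap5-1, -1.64 to -0.71 for Krtap5-4 and -1.65 to -0.65 for Krtap12-1, and Krtap5-4 and Krtap12-1 passed without GC13 replicate 2 alone. The calls over all probe sets, 44 with all arrays, ranged from 0 to 1396 in those fits. Limma called 0 without any 1 FVB array (758 to 941 at an unadjusted p under 0.05), 21 without GC13 replicate 1, 14 without GC13 replicate 3 and 1396 without GC13 replicate 2. They numbered 83 and 119 with pseudocounts of 16 and 32, 23 with the dimmest 50% left out, 28 without centring and 78 with the replicate number as a block. The block gave limma adjusted p of 0.352, 0.230 and 0.249 for Krtap5-1, Krtap5-4 and Krtap12-1. Same-numbered samples correlated at -0.07, 0.18 and 0.36 in their deviations from the group means, and not every sample correlated best with its own number. With 3 samples per group, these correlations cannot decide whether the numbers pair the samples. Krtap3-1 reversed to -0.074 with quantile normalization, which took the hair keratin median to -0.42. Apart from what array weights and the number of arrays do by construction, the cause of these changes was not tested. Signal over background is unknown, which limits dim probe sets such as Qsox1 in GC13.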
